A study of Mus musculus with 20 samples.

Results

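The 37 genes described here encode the DNA replication and S phase machinery of the cell, and were taken by symbol from a table of 29956 gene rows. They comprise 3 origin licensing factors, 6 subunits of the MCM helicase, 3 helicase activators, 5 genes of the replicative polymerases and primase, 5 of the sliding clamp and its loaders, and 2 of flap cleavage and single-strand binding. A further 3 supply nucleotides, 5 protect or repair forks, and 5 are regulators of the cycle or of histone supply at S phase. All 37 had a row, and all 37 passed the filter on low counts. RNA-seq of poly(A) RNA gave their levels in a wild-type mouse melanoblast line, melb-a, which stands for the precursors of the pigment cell. There were 5 groups of 4 libraries: parental cells without virus, cells with a lentiviral control hairpin against luciferase (shLuciferase) or a scrambled one (shScramble), and cells with either hairpin against Hira (shHIRA I, shHIRA II). HIRA is a chaperone that places histone H3.3 into chromatin outside replication. All groups were kept in 40 pM Fgf2, 10 ng/ml SCF and 10% serum. The 4 transduced groups had also had virus for 16 h with 8 µg/ml polybrene, and then 1 µg/ml puromycin. Parental cells therefore differ from control hairpins by virus, polybrene and puromycin together. The labels call the 4 libraries of a group biological replicates of 1 line, with no day or passage given.

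A cell copies its genome once per division. In G1 the origin recognition complex, Cdc6 and Cdt1 load rings of the MCM helicase onto DNA. At the start of S phase GINS and Mcm10 help turn those rings into working helicases, and polymerase alpha with primase, the Pcna clamp, the clamp loader and polymerases delta and epsilon then build the new strands. Many of these genes are transcribed together in late G1 and S phase under E2F factors, so their summed RNA is widely used as a readout of how many cells in a culture are cycling.

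Between 14.95 and 20.7 M counts (M, 1e6) were held by each library, and 13541 genes were tested. Hira stood at 48.3% of the control hairpins with shHIRA I (log2 fold change −1.05, SE 0.14, edgeR adjusted p = 5.15e-05). It stood at 87.8% in libraries with the shHIRA II label (−0.19, SE 0.14, adjusted p = 0.306), where a fall was not detectable. Of 10 melanoblast markers 9 were tested, Ednrb being at 0 in 17 of 20 libraries. The summed level of all 10 was 4447 to 5954 CPM (counts per 1e6) in parental cells, 4062 to 6882 with control hairpins, 1391 to 4023 with shHIRA I and 781 to 1350 in libraries with the shHIRA II label. Of 7 fibroblast markers 5 were tested, and the sum of all 7 was 102 to 217 CPM with shHIRA I, 14.3 to 28.4 in libraries with the shHIRA II label and 49.4 to 87.3 in the other groups. All 7 keratinocyte markers (2 tested) summed to at most 5.75 CPM with Krt1 at 0 in all 20 libraries, and all 7 leukocyte markers (3 tested) to at most 17.1 CPM. Mitochondrially encoded mRNA took 5.50 to 8.88% of counts in parental cells, 6.43 to 9.96% with control hairpins, 1.23 to 9.58% with shHIRA I and 2.88 to 4.71% in libraries with the shHIRA II label. The lowest 2 shares were those of shHIRA I replicate 3 and shHIRA II replicate 2. Of these differences only the mitochondrial share was put into the fits below, as a covariate. Every library labelled shHIRA II had a lower share than every parental or control library. For that label the covariate therefore cannot separate share from hairpin.

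On the CPM scale, replication genes were at an even, high level in parental cells and split the libraries of 3 of the 4 transduced groups. The score of a library is the mean over the 37 genes of log2(CPM + 1), each gene centred on its mean over the 20 libraries. Parental replicates 1 to 4 scored 0.27, 0.31, 0.32 and 0.37. With shLuciferase the scores were 0.33, −1.04, −0.37 and −0.30, and with shScramble 0.36, −0.37, −0.52 and −0.73. Replicate 1 of each control hairpin thus stood at the parental level, and the other 6 control libraries stood below all 4 parental ones. With shHIRA I the scores were 0.51, −0.78, 0.22 and 0.42, so that replicate 2 was low and the other 3 high. The libraries labelled shHIRA II scored 0.24, 0.51, 0.23 and 0.01, all above the 6 low control libraries. Group means were 0.32 ± 0.04 in parental cells, −0.35 ± 0.56 with shLuciferase, −0.31 ± 0.48 with shScramble, 0.09 ± 0.60 with shHIRA I and 0.25 ± 0.21 in libraries with the shHIRA II label (SD, n = 4 each). In bulk RNA, fewer cells in S phase and less of these RNAs per cell cannot be told apart.

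**Figure D1:**
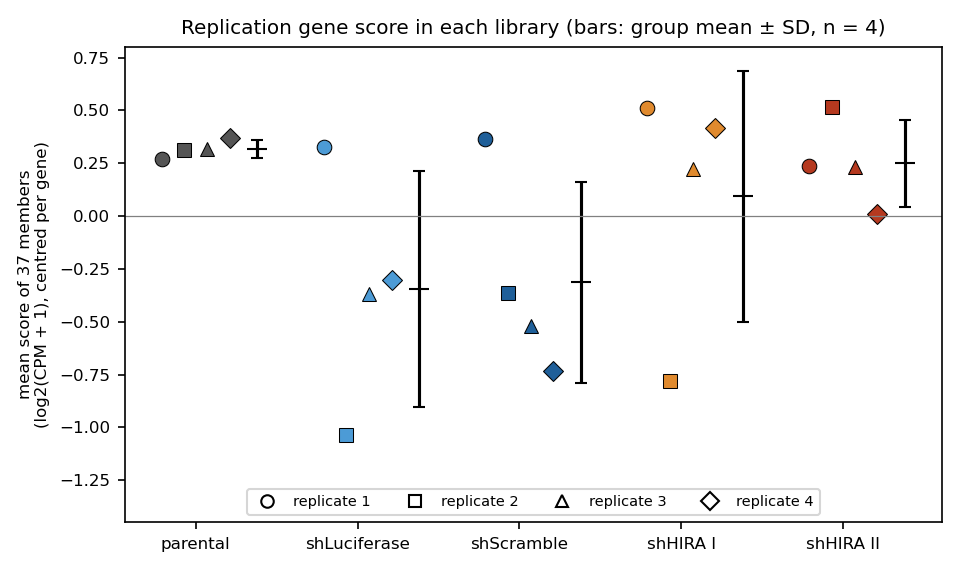
Mean score of the 37 replication genes (vertical axis, log2(CPM + 1) centred per gene) in each of the 20 libraries, by group (horizontal axis); the marker shape gives the replicate number and the bars the group mean ± SD (n = 4). Parental libraries lie between 0.27 and 0.37, replicate 1 of both control hairpins lies among them, and the other 6 control libraries and shHIRA I replicate 2 lie below −0.30.

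The split was shared by nearly all of the genes. In the 4 parental libraries 31 to 36 of the 37 genes were above their own mean over all libraries. In shLuciferase replicate 1 and shScramble replicate 1 the number was 35 and 37, and in the other 6 control libraries it was 0, 1, 2, 1, 0 and 0. In shHIRA I it was 37, 0, 25 and 36, and in libraries with the shHIRA II label 29, 33, 31 and 20. The fold between the highest and the lowest library of a gene had a median over the 37 genes of 1.26 in parental cells (range 1.04 to 1.61). It was 2.99 over the 8 control libraries (1.43 to 4.99), 2.83 in shHIRA I and 1.45 in libraries with the shHIRA II label. The genes diverged most in shHIRA I replicate 3, where the SD of the centred values over the 37 genes was 0.563, against 0.165 to 0.407 in the other 19 libraries. There Pola1 stood 1.64 above its mean, Gins2 1.10 and Pold1 1.03, and Ccne2 1.22 below, Pole 0.69 and Blm 0.58. This library also had the lowest mitochondrial share, 1.23%.

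**Figure D2:**
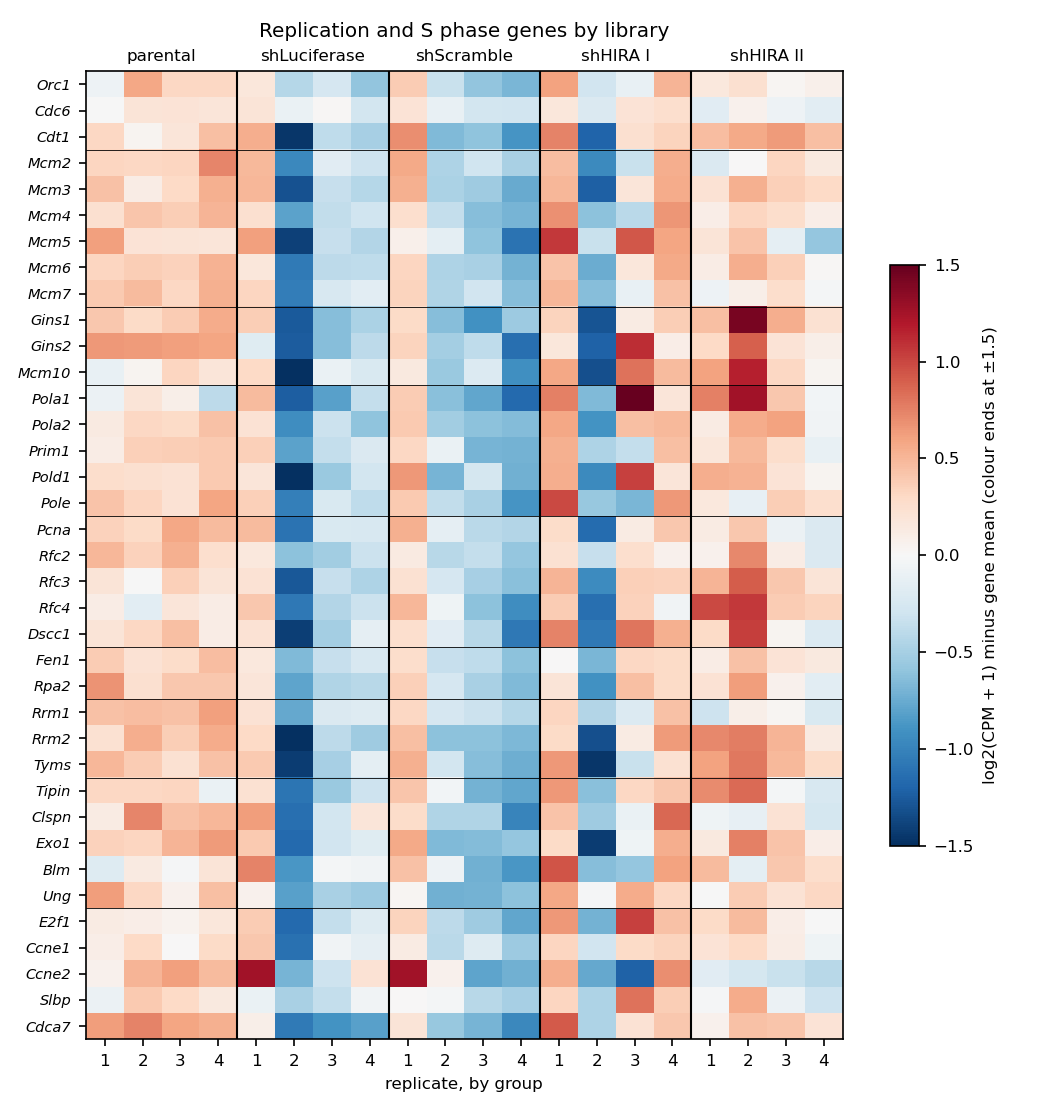
Centred level of each of the 37 genes (rows, ordered by role, with thin lines between roles) in each library (columns, grouped by condition, replicates 1 to 4); colour gives log2(CPM + 1) minus the gene's mean over 20 libraries, and ends at ±1.5. Replicate 1 of both control hairpins is mostly red like the parental libraries, while replicates 2 to 4 of both are mostly blue, as is shHIRA I replicate 2.

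Replication genes were lower with the control hairpins than in parental cells, and 4 of 37 passed the test. The fit was edgeR's quasi-likelihood test over all 20 libraries, a call being a Benjamini-Hochberg adjusted p under 0.05 over the 13541 genes. Rfc2, Rrm1, Ung and Cdca7 fell and none rose, while of all genes 1.57% fell, 2.05% rose and 3.62% changed in either direction. The log2 fold changes of the 37 genes ran from −1.18 to −0.12 with a median of −0.59, against a median of 0.0065 over all genes tested, and 19 had an unadjusted p under 0.05. The number called fell to 1 without parental replicate 1 (88 of 13873 genes fell). It was 2 without any 1 of parental 2, 3 or 4, shLuciferase 2, 3 or 4, shScramble 2, 3 or 4 or shHIRA II 3. Of all genes 86 to 290 fell in those fits. The count was 8 without shHIRA I replicate 2 (2.05% of all genes fell), and 9 without shScramble replicate 1 (1.68%). With replicate 1 left out of every group the median was −0.90 and 5 genes fell (0.733% of all genes). Leaving number 2, 3 or 4 out of every group gave 0 calls, with medians of −0.48, −0.56 and −0.49. Few of all genes fell in these fits either: 128 of 13545 (0.945%), 31 of 13612 and 39 of 13700. Leaving a number out was an alternative chosen after the split between libraries had been seen. With the mitochondrial share as a covariate 5 fell (3.04%), as did 5 without the 2 libraries of lowest share (2.94%).

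With shHIRA I, 5 of 37 replication genes rose against the control hairpins (13.5%), beside 10.9% of all genes. These were Mcm5, Pola1, Ung, Slbp and Cdca7, and none fell (8.87% of all genes). The median log2 fold change was 0.44, against 0.046 over all genes, with a range of −0.23 (Ccne2) to 1.12 (Pola1), and 11 had an unadjusted p under 0.05. The share called higher was thus close to that of all genes. In either direction 13.5% of the 37 were called, below the 19.7% of all genes. The count was 14 without shHIRA I replicate 2, the low library (11.5% of all genes rose), and 11 without shScramble replicate 1 (11.2%). It was 5 without number 1 in any group (8.06%) and 10 without number 2 (10.2%). It was 1 without shHIRA I replicate 1 (1303 of 13796 genes rose). It was 2 without any 1 of shHIRA I 3, shLuciferase 3 or 4 or shScramble 3 or 4 (1258 to 1537 of all genes rose). It was 3 without any 1 of parental 1 or 3, shHIRA I 4, shHIRA II 1, shLuciferase 2 or shScramble 2 (1357 to 1619). With the mitochondrial share as a covariate 2 genes rose (13% of all genes) and the median was 0.23. Without the 2 libraries of lowest mitochondrial share 2 rose (11.8%), with a median of 0.42.

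In libraries with the shHIRA II label, 10 of 37 rose against the control hairpins (27.0%), beside 15.7% of all genes, and none fell (16.7% of all genes). In either direction 27.0% of the 37 were called, below the 32.4% of all genes. Gins1, Gins2, Mcm10, Pola1, Rfc2, Rfc3, Rfc4, Rrm2, Ung and Cdca7 made up the 10. The median log2 fold change was 0.52, against 0.018 over all genes, the range was −0.57 (Ccne2) to 1.23 (Gins1), and 18 had an unadjusted p under 0.05. The count rested on single libraries on both sides. It was 2 without shHIRA II replicate 2 (1607 of 13820 genes rose) and 4 without shHIRA II 1 (1630 of 13779). It was 5 without shScramble 2, 3 or 4 (1842 to 1870 of all genes rose) and 6 without shLuciferase 2 or 3 (2021 and 1909). It was 16 without shHIRA I 2 (17.1% of all genes rose), 17 without shLuciferase 1 (2220 of 13864) and 22 without shScramble 1 (16.2%). Without number 1 in any group it was 21 (13%), and without number 2 it was 1 (10.9%). With the mitochondrial share as a covariate no gene was called (13.3% of all genes rose), 2 had an unadjusted p under 0.05 and the median was 0.36. Shares under this label were all below those of the control libraries, so that fit cannot separate share from hairpin. Without the 2 libraries of lowest mitochondrial share 2 rose (15.5%), with a median of 0.46. Both hairpin comparisons and the comparison with parental cells use the same 8 control libraries, 6 of which were low.

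Against parental cells, 0 replication genes were called with shHIRA I and 1 in libraries with the shHIRA II label in the fit over all 20 libraries. With shHIRA I, where 16.8% of all genes changed (9.95% higher and 6.82% lower), none of the 37 had an unadjusted p under 0.05, DESeq2 and limma called 0, and the median was −0.18. In libraries with the shHIRA II label 1 of 37 fell (14.9% of all genes), with a median of −0.11. That gene was Rrm1 (log2 fold change −0.58, SE 0.21, adjusted p = 0.0467), and the call was lost without any 1 of 12 libraries, the 4 parental and the 4 shHIRA II ones among them, the others being shLuciferase 3 or 4, shScramble 3 and shHIRA I 1 (count 0). Fitted on the shHIRA II and parental libraries alone, 2 of 37 rose and 4 fell, while 2464 of 12593 genes rose and 2442 fell. Between the hairpins 0 of 37 differed by edgeR, DESeq2 or limma (by edgeR 21% of all genes did, 8.6% being higher and 12.4% lower under the shHIRA II label), 1 had an unadjusted p under 0.05 and the median was 0.03. The members with the largest differences were Gins1 at 0.78 (95% interval −0.03 to 1.60), Rfc4 at 0.75 (0.06 to 1.43) and Mcm5 at −0.68 (−1.46 to 0.11); none passed the test. Between shScramble and shLuciferase 0 of 37 differed by any of the 3 tools (0% of all genes by edgeR), none had an unadjusted p under 0.05, and the median was 0.02.

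**Figure D3:**
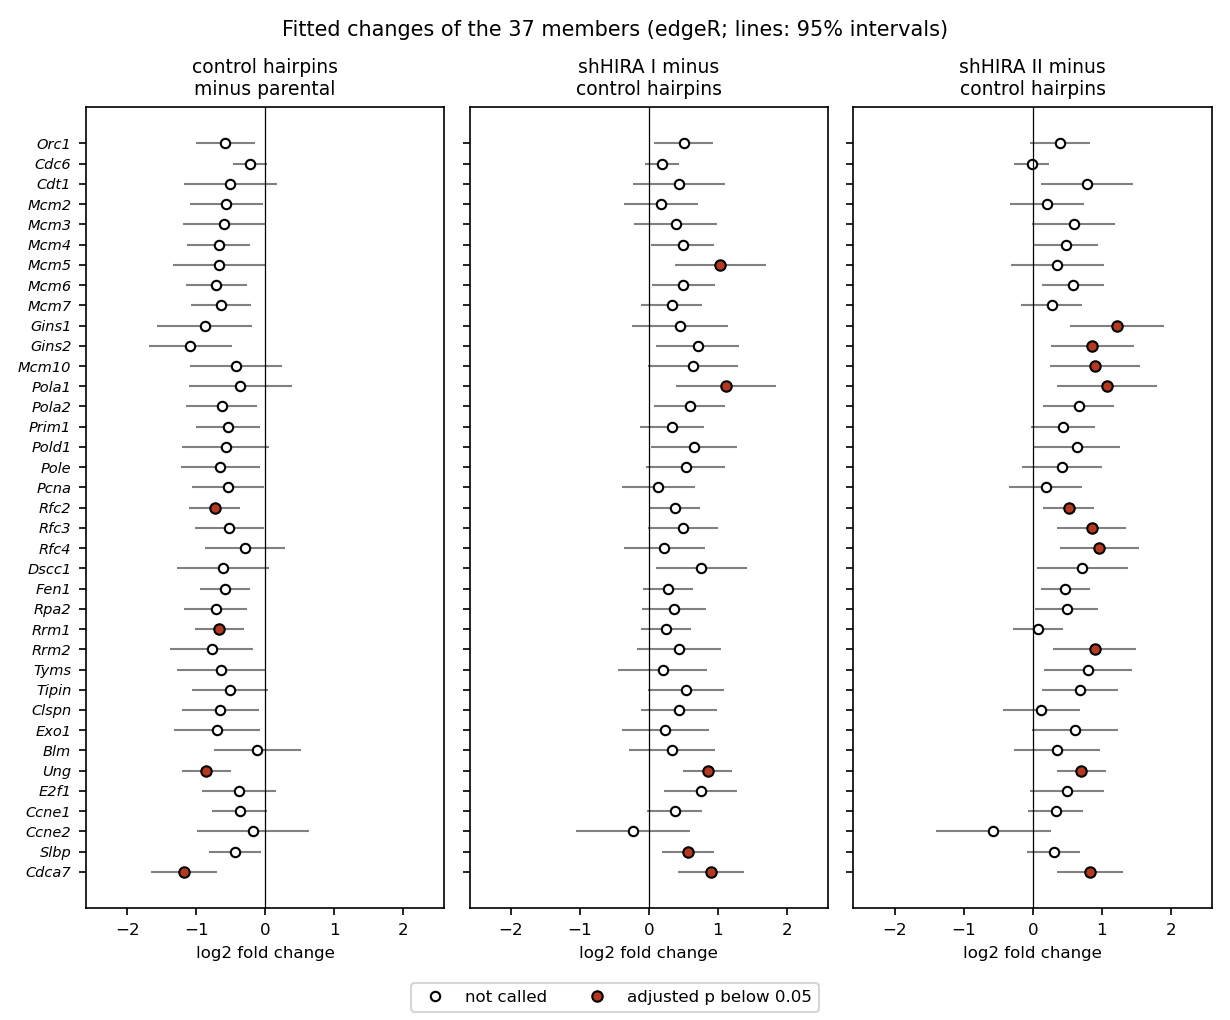
Fitted log2 fold change (horizontal axis) of each of the 37 genes (vertical axis, ordered by role) for control hairpins minus parental, shHIRA I minus control hairpins and shHIRA II minus control hairpins; lines are 95% intervals and filled points have an adjusted p under 0.05. All 37 points are below 0 in the left panel with 4 filled, and 36 and 35 are above 0 in the others with 5 and 10 filled; the control libraries are the same in all 3.

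The promoters of the 37 genes were read from RefSeq (GRCm38.p6), where 28 of the 37 matched by symbol. The window was the 250 bases before each start site, and 2 motifs were searched on both strands: an E2F-type core (TTTGGCG or TTTCCCG) and CCAAT. The E2F-type core was in 8 of the 28 genes (28.6%), namely Cdc6, Mcm5, Mcm6, Mcm7, Pola1, Fen1, Clspn and Cdca7, against 4.54% of 27025 genes. CCAAT was in 17 of 28 (60.7%), against 37.5%. A match is a description of the letters and not a bound site. The members were chosen as replication genes, so these shares do not depend on what the libraries showed. The 27025 genes were not matched to them for base composition, and a link between motifs and the changes between libraries was not tested. The 170 bases shown for 5 of them, the capitals marking E2F-type matches on either strand, lie at chr8:75109339-75109508 (plus strand), chr1:128359706-128359875 (minus), chrX:93632156-93632325 (minus), chr4:126556765-126556934 (plus) and chr2:72475989-72476158 (plus). Mcm5, Pola1 and Cdca7 are shown because they were called below, and Mcm6 and Clspn because they carry matches and were not.
Mcm5: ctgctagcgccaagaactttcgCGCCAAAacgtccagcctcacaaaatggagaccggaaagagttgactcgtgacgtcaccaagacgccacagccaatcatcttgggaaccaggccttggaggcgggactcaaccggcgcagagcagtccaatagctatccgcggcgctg
Mcm6: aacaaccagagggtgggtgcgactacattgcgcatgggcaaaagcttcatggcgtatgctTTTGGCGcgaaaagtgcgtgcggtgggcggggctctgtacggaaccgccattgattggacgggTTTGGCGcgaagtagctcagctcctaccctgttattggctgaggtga
Pola1: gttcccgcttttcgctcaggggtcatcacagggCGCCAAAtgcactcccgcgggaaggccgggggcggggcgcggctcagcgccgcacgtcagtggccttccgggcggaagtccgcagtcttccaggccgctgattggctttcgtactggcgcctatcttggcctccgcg
Clspn: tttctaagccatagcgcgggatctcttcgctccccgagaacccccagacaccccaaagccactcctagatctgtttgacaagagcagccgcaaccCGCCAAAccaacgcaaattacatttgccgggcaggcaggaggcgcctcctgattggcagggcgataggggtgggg
Cdca7: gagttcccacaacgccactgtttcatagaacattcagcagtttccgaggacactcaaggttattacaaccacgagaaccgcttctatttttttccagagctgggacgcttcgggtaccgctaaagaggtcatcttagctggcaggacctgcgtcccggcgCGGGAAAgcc
The match began 148 bases from the end of the printed stretch in Mcm5, 137 in Pola1, 75 in Clspn and 10 in Cdca7, and Mcm6 held 2 matches. Ung, which was called in all 3 comparisons, held neither motif in its window.

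Of the origin licensing factors none of 3 was called in any comparison. Orc1, the large subunit of the origin recognition complex, stood at 14.9 to 24.00 CPM in parental cells, 10.1 to 17.8 with shLuciferase, 9.42 to 20.8 with shScramble, 12.7 to 24.4 with shHIRA I and 16.1 to 18.8 in libraries with the shHIRA II label. Cdc6, the ATPase that helps load MCM, was the steadiest of the 3, at 25.99 to 30.2 CPM in parental cells, 21.4 to 30.1 with shLuciferase, 21.2 to 30.2 with shScramble, 22.4 to 31.3 with shHIRA I and 23.1 to 27.4 in libraries with the shHIRA II label. Cdt1, which brings MCM to the origin, varied most, at 73.5 to 98.3 CPM in parental cells, 25.5 to 105 with shLuciferase, 38.4 to 117 with shScramble, 30.7 to 121 with shHIRA I and 98.01 to 112 in libraries with the shHIRA II label. Cdt1 was 105 and 117 CPM in replicate 1 of the control hairpins and 25.5 to 54.7 in the other 6, so that those 6 were below every parental library. The log2 fold changes of the 3 were −0.58, −0.22 and −0.50 on transduction, 0.50, 0.19 and 0.44 with shHIRA I and 0.40, −0.02 and 0.79 in libraries with the shHIRA II label, in the order Orc1, Cdc6, Cdt1.

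The 6 MCM genes encode the ring that unwinds DNA, in which each subunit is present once. Per length, parental levels were 233 ± 32.5 TPM for Mcm7, 132 ± 27.5 TPM for Mcm2, 131 ± 16.9 TPM for Mcm6, 107 ± 15.5 TPM for Mcm3 and 69.97 ± 10.01 TPM for Mcm4 (SD, n = 4), with Mcm5 far below at 4.06 ± 0.532 TPM. Neighbours in that order overlapped within their SD from Mcm2 to Mcm3, and Mcm5 was the lowest of all 37 genes on this scale. Of the 6, all had log2 fold changes below 0 on transduction (−0.71 to −0.56) with none called, while 1.57% of all genes fell. All were above 0 with shHIRA I (0.18 to 1.03, 1 called), where 10.9% of all genes rose. All were also above 0 in libraries with the shHIRA II label (0.20 to 0.59, none called), where 15.7% rose. Mcm5 stood at 16.2, 11.9, 11.9 and 11.8 CPM in parental replicates 1 to 4, at 16.3, 3.27, 7.84 and 7.29 with shLuciferase and at 10.9, 9.20, 6.42 and 4.24 with shScramble. Its level was 22.4, 7.92, 20.5 and 16.03 CPM with shHIRA I and 11.9, 14.2, 9.24 and 6.51 in libraries with the shHIRA II label. The 6 control libraries numbered 2 to 4 (3.27 to 9.20 CPM) were below every parental library, and shHIRA I ran from within to above the parental range with replicate 2 under it. Mcm5 rose with shHIRA I (log2 fold change 1.03, SE 0.34, adjusted p = 0.037) and was not called in libraries with the shHIRA II label (log2 fold change 0.36, SE 0.34, adjusted p = 0.453) or on transduction (log2 fold change −0.67, SE 0.34, adjusted p = 0.332). The shHIRA I call was lost without any 1 of the libraries shLuciferase 3 or 4, shScramble 3 or 4 or shHIRA I 1, 3 or 4 (adjusted p from 0.0638 to 0.134). It was lost too with the mitochondrial share as a covariate (0.74, adjusted p = 0.16). The gene lies at chromosome 8, 75109569 to 75128439 on the plus strand (this and all positions below are GRCm38, GENCODE M21, protein-coding genes). Mcm7, the most abundant, shared 33.4% of its 31-base words with other genes, mainly the pseudogene Gm5487. Its counts are uncertain for that reason, to an extent that was not measured. It stood at 426 to 499 CPM in parental cells, 168 to 429 with shLuciferase, 220.3 to 435 with shScramble, 221 to 488 with shHIRA I and 326 to 415 in libraries with the shHIRA II label.

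Of the helicase activators 3 of 3 were called higher in libraries with the shHIRA II label, where 15.7% of all genes rose. No other role had every member called, but roles hold few genes and none was tested as a set. Gins1 and Gins2 are subunits of GINS, which joins MCM and Cdc45 in the active helicase, and Mcm10 is needed for that helicase to start. Gins1 stood at 12.8, 11.8, 12.5 and 14.4 CPM in parental replicates 1 to 4, at 12.5, 3.37, 5.70 and 6.49 with shLuciferase and at 11.7, 5.68, 4.55 and 6.18 with shScramble. Its level was 12.2, 3.23, 10.3 and 12.4 CPM with shHIRA I and 13.3, 27.02, 14.2 and 11.2 in libraries with the shHIRA II label. Control libraries numbered 2 to 4 were all under the parental range, and shHIRA II replicate 2 was the highest of the 20 libraries. Gins1 (chromosome 2, 150905400 to 150931280) rose in libraries with the shHIRA II label (log2 fold change 1.23, SE 0.35, adjusted p = 0.0111), the largest change of the 37, but was not called with shHIRA I (log2 fold change 0.44, SE 0.36, adjusted p = 0.417) or on transduction (log2 fold change −0.88, SE 0.35, adjusted p = 0.194). The call was lost without shHIRA II 2 (0.88, adjusted p = 0.0859).

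Gins2 stood at 110.4, 109, 107 and 106 CPM in parental replicates 1 to 4, at 61.3, 28.8, 44.4 and 53.01 with shLuciferase and at 88.5, 48.8, 53.3 and 31.2 with shScramble. Its level was 78.3, 29.5, 151 and 74.5 CPM with shHIRA I and 86.1, 131, 80.7 and 73.9 in libraries with the shHIRA II label. All 8 control libraries were below the parental 4, and the highest value was that of shHIRA I replicate 3. Gins2 (chromosome 8, 120578633 to 120589304) rose in libraries with the shHIRA II label (log2 fold change 0.86, SE 0.31, adjusted p = 0.0371), with 0.71 with shHIRA I (adjusted p = 0.117) and −1.08 on transduction (adjusted p = 0.0533), just short of the threshold. In GENCODE, 66.2% of its 31-base words also occur in Gse1, so its counts are uncertain. The shHIRA II call was lost without any 1 of the libraries parental 1 or 3, shLuciferase 2 or 3, shScramble 2, 3 or 4 or shHIRA II 1 or 2 (adjusted p from 0.0508 to 0.164). With the mitochondrial share as a covariate the value was 0.22 (adjusted p = 0.592).

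Mcm10 stood at 36.8, 41.1, 50.2 and 45.5 CPM in parental replicates 1 to 4, at 49.2, 13.1, 37.05 and 33.9 with shLuciferase and at 44.2, 26.8, 34.5 and 20.6 with shScramble. Its level was 60.02, 15.4, 70.7 and 55.6 CPM with shHIRA I and 61.02, 90.7, 49.6 and 40.9 in libraries with the shHIRA II label. Here too replicate 2 was low with shLuciferase and shHIRA I and highest in libraries with the shHIRA II label. Mcm10 (chromosome 2, 4989714 to 5012791) rose in the latter (log2 fold change 0.90, SE 0.33, adjusted p = 0.0444) and was not called with shHIRA I (0.64, adjusted p = 0.199). The call was lost without any 1 of the libraries parental 1, 2, 3 or 4, shLuciferase 2, 3 or 4, shScramble 2, 3 or 4, shHIRA I 4 or shHIRA II 1, 2 or 3 (adjusted p from 0.0502 to 0.208), and with mitochondrial share as the covariate (0.37, adjusted p = 0.493).

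Among polymerase and primase genes only Pola1, the catalytic subunit of polymerase alpha, which starts each new strand with primase, was called, 1 of 5 with each Hira hairpin. Of all genes 10.9% rose with shHIRA I and 15.7% in libraries with the shHIRA II label. Pola1 stood at 40.8, 50.1, 46.4 and 33.04 CPM in parental replicates 1 to 4, at 60.95, 17.9, 24.4 and 33.7 with shLuciferase and at 57.04, 27.9, 25.04 and 18.8 with shScramble. Its level was 74.3, 27.1, 138 and 49.5 CPM with shHIRA I and 74.3, 106, 57.98 and 42.4 in libraries with the shHIRA II label. In this gene the highest value was in shHIRA I replicate 3, more than any parental library, and replicate 1 of every transduced group was above the parental range. Pola1 (chromosome X, 93304767 to 93632155, minus strand) rose with shHIRA I (log2 fold change 1.12, SE 0.37, adjusted p = 0.041) and in libraries with the shHIRA II label (log2 fold change 1.08, SE 0.37, adjusted p = 0.0331), and not detectably on transduction (−0.36, adjusted p = 0.695). The shHIRA I call was lost without any 1 of the libraries parental 1 or 3, shLuciferase 2, 3 or 4, shScramble 2, 3 or 4, shHIRA I 1 or 3 or shHIRA II 1 (adjusted p from 0.0501 to 0.266), the value without shHIRA I 3 being 0.59. The shHIRA II call was lost without any 1 of the libraries shLuciferase 2 or 3, shScramble 2, 3 or 4 or shHIRA II 1 or 2 (adjusted p from 0.0592 to 0.155). With the mitochondrial share as a covariate the values were 0.38 (adjusted p = 0.48) and 0.40 (0.462).

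The other 4 genes of this role were not called. Pola2, the accessory subunit of polymerase alpha, stood at 33.1 to 40.9 CPM in parental cells, 15.2 to 34.98 with shLuciferase, 18.8 to 39.7 with shScramble, 15.7 to 45.1 with shHIRA I and 28.7 to 46.03 in libraries with the shHIRA II label. Prim1, the primase that lays down the RNA primer, ran at 51.1 to 62.4 CPM in parental cells, 26.5 to 61.01 with shLuciferase, 28.6 to 58.9 with shScramble, 34.1 to 69.1 with shHIRA I and 43.6 to 66.4 in libraries with the shHIRA II label. Pold1, the catalytic subunit of the lagging strand polymerase delta, stood at 68.5 to 77.9 CPM in parental cells, 19.6 to 67.1 with shLuciferase, 35.2 to 93.3 with shScramble, 29.8 to 121 with shHIRA I and 60.7 to 86.2 in libraries with the shHIRA II label, with its highest value in shHIRA I replicate 3. Pole, its counterpart on the leading strand, stood at 82.2 to 107 CPM in parental cells, 34.1 to 90.96 with shLuciferase, 37.8 to 93.2 with shScramble, 43.5 to 141 with shHIRA I and 64.7 to 91.5 in libraries with the shHIRA II label, and in the same library was at 43.5 CPM, its lowest in that group. Pold1 and Pole thus lay at opposite ends of the shHIRA I range in replicate 3.

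Of the clamp and its loaders, Rfc2 fell on transduction, as did 1.57% of all genes. Rfc2, Rfc3 and Rfc4 rose in libraries with the shHIRA II label, 3 of 5 in the role, where 15.7% of all genes rose. The Rfc genes encode small subunits of the loader that opens the Pcna ring and closes it around DNA. Rfc2 stood at 29.7, 26.5, 30.5 and 24.8 CPM in parental replicates 1 to 4, at 23.2, 13.2, 14.1 and 16.4 with shLuciferase and at 22.8, 15.3, 15.99 and 13.5 with shScramble. Its level was 24.4, 16.01, 24.8 and 21.8 CPM with shHIRA I and 21.7, 34.6, 22.5 and 17.7 in libraries with the shHIRA II label. All 8 control libraries were below all 4 parental ones. Rfc2 (chromosome 5, 134581366 to 134601805) fell on transduction (log2 fold change −0.73, SE 0.19, adjusted p = 0.0375) and rose in libraries with the shHIRA II label (log2 fold change 0.52, SE 0.19, adjusted p = 0.0422). The transduction call was lost without any 1 of the libraries parental 1, 2, 3 or 4, shLuciferase 2, 3 or 4, shScramble 2, 3 or 4 or shHIRA II 3 (adjusted p from 0.0522 to 0.124). The shHIRA II call was lost without any 1 of the libraries parental 1, 2, 3 or 4, shLuciferase 2, 3 or 4, shScramble 2, 3 or 4, shHIRA I 4 or shHIRA II 1, 2 or 3 (adjusted p from 0.0508 to 0.28), and with the covariate (0.31, adjusted p = 0.312). Of its 31-base words 19.3% occur in other genes, mainly Lat2.

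Rfc3 stood at 52.4, 45.2, 58.6 and 52.3 CPM in parental replicates 1 to 4, at 52.8, 18.3, 35.5 and 32.7 with shLuciferase and at 53.5, 37.9, 31.98 and 29.01 with shScramble. Its level was 65.1, 23.1, 58.8 and 58.04 CPM with shHIRA I and 65.2, 85.9, 60.5 and 52.3 in libraries with the shHIRA II label. Replicate 1 of both control hairpins was within the parental range and the other 6 control libraries below it. Rfc3 (chromosome 5, 151642756 to 151651242) rose in libraries with the shHIRA II label (log2 fold change 0.86, SE 0.25, adjusted p = 0.0147), and this call was lost without shHIRA II 2 (0.70, adjusted p = 0.0719), and with mitochondrial share as the covariate (0.57, adjusted p = 0.17). Rfc4 stood at 45.04, 37.04, 47.1 and 45.1 CPM in parental replicates 1 to 4, at 55.5, 19.2, 30.3 and 33.1 with shLuciferase and at 59.1, 39.7, 26.7 and 21.3 with shScramble. Its level was 54.5, 18.4, 53.02 and 40.2 CPM with shHIRA I and 83.3, 88.1, 54.3 and 52.9 in libraries with the shHIRA II label. For Rfc4 every library labelled shHIRA II was above every parental one, and replicates 1 and 2 were above all the other libraries. Rfc4 (chromosome 16, 23113943 to 23127737) rose there (log2 fold change 0.97, SE 0.29, adjusted p = 0.0164), with 0.22 with shHIRA I (adjusted p = 0.659), and was 0.68 against parental cells (adjusted p = 0.154). The call was lost without any 1 of the libraries shHIRA II 1 or 2 (adjusted p from 0.0579 to 0.0675) and with the covariate (0.63, adjusted p = 0.187). With shHIRA I the covariate turned the direction to −0.094. Rfc4 shares 10.5% of its words with Eif4a2.

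Pcna, the clamp itself, was the most abundant of the 37 genes per length (374 ± 35.2 TPM in parental cells, SD, n = 4) and was not called. It stood at 429.9 to 527 CPM in parental cells, 163 to 492 with shLuciferase, 259 to 511 with shScramble, 158 to 466 with shHIRA I and 304 to 468 in libraries with the shHIRA II label, and 23.3% of its words occur in the pseudogene Pcna-ps2. Dscc1, a subunit of an alternative loader that also serves cohesion, was not called, at 21.2 to 27.1 CPM in parental cells, 6.73 to 22.8 with shLuciferase, 8.80 to 23.5 with shScramble, 8.76 to 34.7 with shHIRA I and 16.8 to 41.2 in libraries with the shHIRA II label. Of flap cleavage and single-strand binding, Fen1, which trims the flaps between Okazaki fragments, stood at 146 to 174 CPM in parental cells, 79.2 to 141 with shLuciferase, 81.4 to 151 with shScramble, 77.97 to 156 with shHIRA I and 136 to 171 in libraries with the shHIRA II label. Fen1 had an adjusted p of 0.0547 in libraries with the shHIRA II label (0.47) and 0.0927 on transduction (−0.58), and 79.6% of its words occur in other genes, mainly Gm10143. Rpa2, a subunit of the protein that coats single strands, stood at 114 to 155 CPM in parental cells, 55.2 to 109.7 with shLuciferase, 60.5 to 124 with shScramble, 51.1 to 132 with shHIRA I and 86.7 to 149 in libraries with the shHIRA II label and was not called.

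Of the 3 nucleotide supply genes Rrm1 fell on transduction, as did 1.57% of all genes. Rrm2 rose in libraries with the shHIRA II label, as did 15.7% of all genes. Rrm1 and Rrm2 are the large and small subunits of ribonucleotide reductase, which makes deoxynucleotides, the small one being limiting and cycle-regulated. Rrm2 stood at 184, 230.0, 204 and 233 CPM in parental replicates 1 to 4, at 194, 55.01, 119 and 109 with shLuciferase and at 215, 103, 102 and 98.4 with shScramble. Its level was 193, 62.7, 172 and 245 CPM with shHIRA I and 259.7, 268, 224 and 173 in libraries with the shHIRA II label. Replicate 1 of the control hairpins lay at the parental level, the other 6 below it, and shHIRA II replicates 1 and 2 above it. Rrm2 (chromosome 12, 24708241 to 24714146) rose in libraries with the shHIRA II label (log2 fold change 0.90, SE 0.31, adjusted p = 0.0311) and was −0.78 on transduction (adjusted p = 0.191). The call was lost without any 1 of the libraries shLuciferase 4, shScramble 2, 3 or 4 or shHIRA II 1, 2 or 3 (adjusted p from 0.0512 to 0.0899), and with the covariate (0.65, adjusted p = 0.217). Rrm1 (chromosome 7, 102441695 to 102469771) stood at 341 to 385 CPM in parental cells, 147 to 292 with shLuciferase, 186 to 312 with shScramble, 186 to 341 with shHIRA I and 203 to 267 in libraries with the shHIRA II label, so that all 8 control libraries and all 4 labelled shHIRA II were below the parental ones. It fell on transduction (log2 fold change −0.66, SE 0.18, adjusted p = 0.0476) and was 0.08 in libraries with the shHIRA II label against controls (adjusted p = 0.777). The transduction call was lost without any 1 of the libraries parental 1, 2, 3 or 4, shLuciferase 2, 3 or 4, shScramble 2, 3 or 4, shHIRA I 1 or shHIRA II 1, 2, 3 or 4 (adjusted p from 0.0522 to 0.143). The difference between the subunits was not tested. Tyms, thymidylate synthase, was not called, at 54.7 to 65.7 CPM in parental cells, 16.7 to 61.4 with shLuciferase, 27.5 to 67.8 with shScramble, 16.3 to 73.2 with shHIRA I and 56.8 to 81.2 in libraries with the shHIRA II label.

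Ung, the uracil glycosylase that removes uracil built into new DNA, was the member of lowest adjusted p and was called in all 3 comparisons. Ung stood at 38.2, 30.5, 25.6 and 33.8 CPM in parental replicates 1 to 4, at 25.5, 13.4, 17.2 and 16.5 with shLuciferase and at 24.8, 14.4, 14.6 and 15.6 with shScramble. Its level was 36.96, 24.1, 36.4 and 30.6 CPM with shHIRA I and 24.3, 32.1, 28.6 and 30.5 in libraries with the shHIRA II label. Control libraries numbered 2 to 4 lay at 13.4 to 17.2 CPM, below every library of the other 3 groups, and replicate 1 of each control hairpin stood above them. Ung (chromosome 5, 114130386 to 114139323, plus strand) fell on transduction (log2 fold change −0.85, SE 0.18, adjusted p = 0.0126), rose with shHIRA I (log2 fold change 0.85, SE 0.18, adjusted p = 0.00245) and rose in libraries with the shHIRA II label (log2 fold change 0.70, SE 0.18, adjusted p = 0.00618). Against parental cells it was 0.00 with shHIRA I (95% interval −0.42 to 0.42) and −0.15 in libraries with the shHIRA II label (−0.57 to 0.27). The transduction call was lost without parental 1 (−0.75, adjusted p = 0.0597). Neither hairpin call was lost with any 1 library left out, and the shHIRA II call was lost with the mitochondrial share as a covariate (0.51, adjusted p = 0.0747). The shHIRA II call was also lost with number 2 or 4 left out of every group (edgeR adjusted p = 0.0693 and 0.0822). The transduction call was lost without number 2, 3 or 4 (adjusted p from 0.0629 to 0.202).

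The other 4 fork protection and repair genes were not called. Clspn, the adaptor that passes the stalled fork signal to Chk1, stood at 67.7 to 104 CPM in parental cells, 27.8 to 96.9 with shLuciferase, 30.7 to 75.3 with shScramble, 42.8 to 113 with shHIRA I and 51.8 to 72.2 in libraries with the shHIRA II label. Tipin, of the complex that holds helicase and polymerase together, ran at 51.7 to 69.5 CPM in parental cells, 25.5 to 65.2 with shLuciferase, 31.9 to 74.5 with shScramble, 35.5 to 87.6 with shHIRA I and 46.9 to 101 in libraries with the shHIRA II label. The exonuclease Exo1 stood at 37.1 to 46.4 CPM in parental cells, 12.6 to 39.02 with shLuciferase, 18.3 to 44.4 with shScramble, 10.4 to 43.7 with shHIRA I and 31.7 to 50.6 in libraries with the shHIRA II label. Blm, the helicase lost in Bloom syndrome, ran at 24.5 to 32.4 CPM in parental cells, 14.95 to 47.9 with shLuciferase, 14.97 to 38.6 with shScramble, 17.7 to 55.1 with shHIRA I and 25.3 to 39.5 in libraries with the shHIRA II label, with its highest value in shHIRA I replicate 1 and 18.5 CPM in replicate 3.

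Among the cycle regulators, Cdca7, a chromatin factor needed by the Hells remodeller, had the largest change on transduction of the 37 and was called in all 3 comparisons. Cdca7 stood at 50.6, 54.8, 49.5 and 47.6 CPM in parental replicates 1 to 4, at 34.6, 15.1, 17.00 and 18.05 with shLuciferase and at 37.4, 21.6, 19.7 and 16.2 with shScramble. Its level was 62.3, 23.4, 37.8 and 43.1 CPM with shHIRA I and 34.1, 44.3, 43.8 and 37.5 in libraries with the shHIRA II label. All 8 control libraries were below all 4 parental ones, and the 6 numbered 2 to 4 (15.1 to 21.6 CPM) were below every other library of the set. Cdca7 (chromosome 2, 72476159 to 72486893, plus strand) fell on transduction (log2 fold change −1.18, SE 0.24, adjusted p = 0.0106) and rose with shHIRA I (log2 fold change 0.90, SE 0.24, adjusted p = 0.0138) and in libraries with the shHIRA II label (log2 fold change 0.83, SE 0.25, adjusted p = 0.0141). The shHIRA I call was lost without shHIRA I 1 (0.63, adjusted p = 0.105), and the other calls with no single library left out. With the covariate the shHIRA II value was 0.76 (adjusted p = 0.0757). With number 2, 3 or 4 left out of every group, the transduction and shHIRA II calls were lost (edgeR adjusted p from 0.0622 to 0.151 and from 0.0864 to 0.109). The shHIRA I call was lost without number 3 or 4 (0.0881 and 0.144) and with only the groups compared (0.0662).

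Slbp, the protein that binds the stem-loop of replication-dependent histone mRNA and so ties histone supply to S phase, rose with shHIRA I. Slbp stood at 97.8, 137, 128 and 115 CPM in parental replicates 1 to 4, at 96.5, 73.6, 80.7 and 100.2 with shLuciferase and at 104, 101, 77.3 and 72.9 with shScramble. Its level was 129, 74.7, 183 and 135 CPM with shHIRA I and 102, 152, 97.7 and 83.6 in libraries with the shHIRA II label. The groups overlapped, the highest value being that of shHIRA I replicate 3. Slbp (chromosome 5, 33634952 to 33652574) gave log2 fold change 0.56, SE 0.19, adjusted p = 0.0469 with shHIRA I and 0.30 in libraries with the shHIRA II label (adjusted p = 0.246), which the covariate turned to −0.045. The shHIRA I call was lost without any 1 of the libraries parental 1, 2, 3 or 4, shLuciferase 1, 2, 3 or 4, shScramble 2, 3 or 4, shHIRA I 1, 3 or 4 or shHIRA II 1 or 3 (adjusted p from 0.0514 to 0.21). With the covariate it was 0.23 (adjusted p = 0.372).

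E2f1, the transcription factor that drives many of these genes, stood at 50.7 to 55.2 CPM in parental cells, 21.3 to 63.9 with shLuciferase, 28.2 to 62.04 with shScramble, 29.4 to 101 with shHIRA I and 48.9 to 68.7 in libraries with the shHIRA II label and was not called, with 0.75 with shHIRA I (adjusted p = 0.0596). Cyclin E1 (Ccne1) and cyclin E2 (Ccne2), which activate Cdk2 at the entry to S phase, were not called either. Ccne1 ran at 40.2 to 49.6 CPM in parental cells, 17.9 to 53.4 with shLuciferase, 27.1 to 43.6 with shScramble, 32.6 to 50.8 with shHIRA I and 38.4 to 49.7 in libraries with the shHIRA II label. Ccne2 stood at 35.1, 48.4, 52.2 and 46.96 CPM in parental cells, 81.6, 20.4, 26.8 and 39.3 with shLuciferase and 82.2, 35.1, 18.9 and 20.02 with shScramble, so that replicate 1 of both control hairpins was above every other library. It was 49.7, 19.3, 13.9 and 54.97 CPM with shHIRA I and 29.7, 27.8, 26.5 and 24.9 in libraries with the shHIRA II label. Ccne2 was the sole member with a log2 fold change below 0 with both Hira hairpins (−0.23, adjusted p = 0.751, and −0.57, adjusted p = 0.32), and it shares 15.6% of its words with Ints8.

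**Figure D4:**
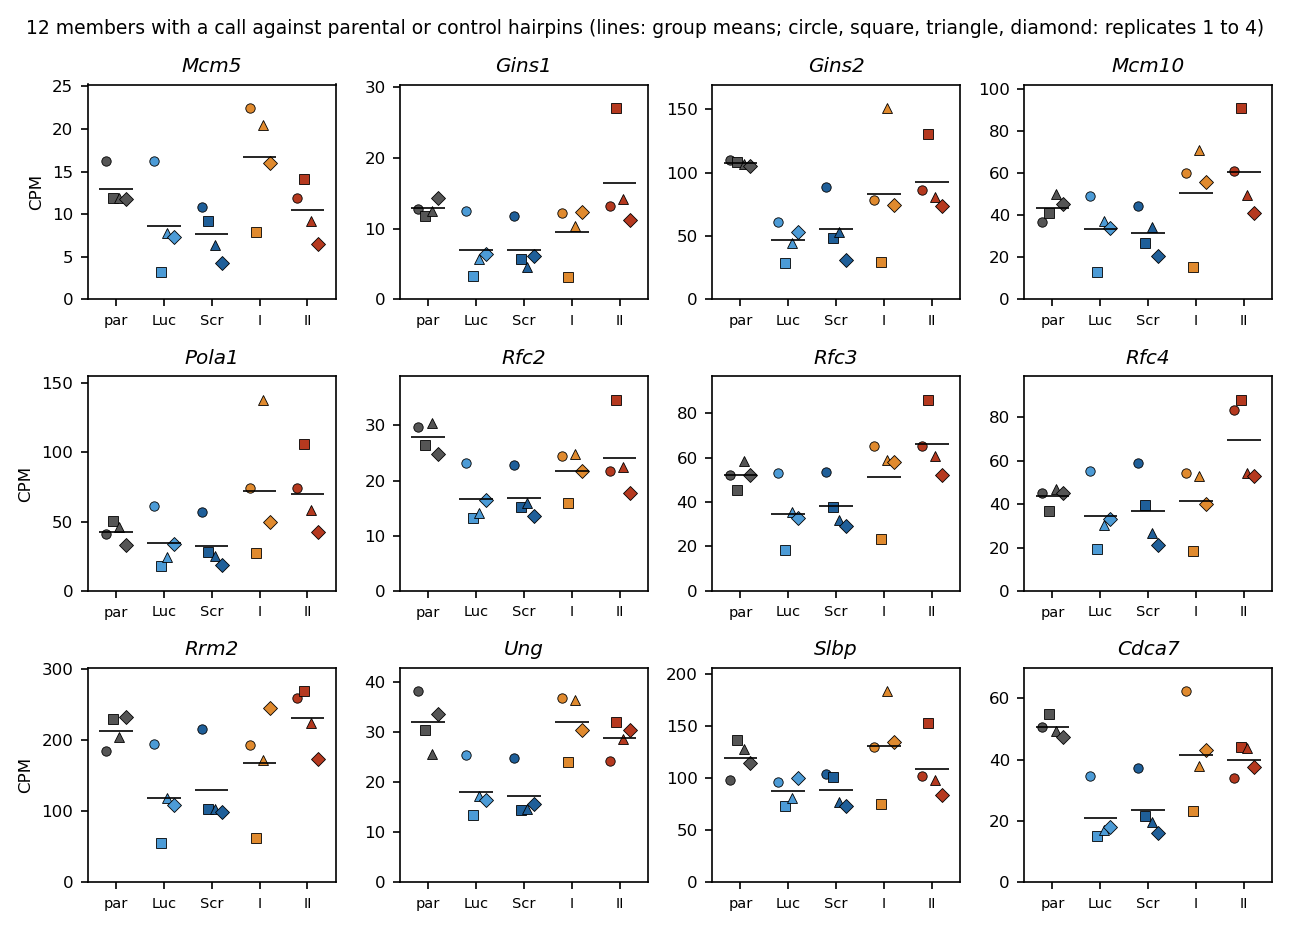
CPM (vertical axes, from 0) of 12 of the members called on transduction or with a Hira hairpin against controls (Rrm1, also called, had the highest adjusted p and is not drawn), by group (par, parental; Luc, shLuciferase; Scr, shScramble; I, shHIRA I; II, libraries labelled shHIRA II); each point is a library, its shape the replicate number, and the horizontal line the group mean. Circles (replicate 1) lie at the top of both control groups in all 12 panels but for shLuciferase in Slbp, and the square (replicate 2) is the lowest shHIRA I library in all 12.

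The wider replication machinery was given by a list of 88 other genes, 86 of them tested. On transduction 4 fell and none rose (4.65%, beside 3.62% of all genes in either direction; median −0.38), among them Msh6 (−0.60, SE 0.14, adjusted p = 0.024), Rnaseh2c (−0.78, SE 0.19, adjusted p = 0.0283) and the checkpoint scaffold Topbp1 (−0.78, SE 0.21, adjusted p = 0.0395). With shHIRA I 6 rose and 1 fell (median 0.29), 8.14% in all, which is below the 19.7% of all genes called in either direction. Samhd1, which breaks down deoxynucleotides and opposes ribonucleotide reductase, had the lowest p (1.12, SE 0.15, adjusted p = 5.15e-05), followed by Pole3 (0.54, SE 0.11, adjusted p = 0.002), E2f2 (1.43, SE 0.34, adjusted p = 0.00585) and Orc5 (0.37, SE 0.10, adjusted p = 0.0153). In libraries with the shHIRA II label 12 rose and 3 fell (median 0.27), 17.4% in all beside 32.4% of all genes. Samhd1 rose again (1.81, SE 0.15, adjusted p = 6.50e-07), as did Pole3 (0.79, SE 0.11, adjusted p = 4.28e-05) and Orc2 (0.85, SE 0.19, adjusted p = 0.00242), and the repair gene Brca1 fell (−1.08, SE 0.18, adjusted p = 0.000213). Samhd1 was also higher than in parental cells (1.04, SE 0.18, adjusted p = 0.000906 with shHIRA I and 1.72, SE 0.19, adjusted p = 5.22e-06 in libraries with the shHIRA II label), and higher in the latter than with shHIRA I (0.69, SE 0.18, adjusted p = 0.0111).

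In libraries with the shHIRA II label, scores of mitotic genes lay below 0 and those of replication genes above it. Here 0 is the mean over the 20 libraries and not a reference group. The lowest of these replication scores was 0.01, and the mitotic scores lay within the range of the control libraries (−1.11 to 0.75). A list of 30 genes of G2 and M phase was scored as the members were. Its scores were 0.41, 0.50, 0.45 and 0.52 in parental cells, 0.75, −1.11, −0.03 and 0.01 with shLuciferase and 0.68, 0.03, −0.42 and −0.33 with shScramble. They were 0.66, −1.25, −0.44 and 0.38 with shHIRA I and −0.14, −0.13, −0.13 and −0.38 in libraries with the shHIRA II label. Of all 20, those 4 and shHIRA I replicate 3 were the libraries with a replication score above 0 and a mitotic one below it. The same 5 had the lowest mitochondrial shares, 1.23 to 4.71% of counts, the next being 5.50%, and the part of this share in the scores was not tested. By edgeR none of the 30 was called on transduction (median −0.42, 2 with an unadjusted p under 0.05), with shHIRA I (0.04, 0) or in libraries with the shHIRA II label against controls (−0.16, 2), and DESeq2 and limma called none in these. Against parental cells 6 of 30 fell in libraries with the shHIRA II label (14.9% of all genes fell), with a median of −0.62 beside −0.11 for the replication members. Of the 30, DESeq2 called 9 (2111 of 13526 genes fell), limma 1 (1170 of 13541) and edgeR with the mitochondrial share as a covariate 4 (2076 of 13541), all lower. For limma and for the covariate these shares of the 30 were below those of all genes. The 4 of lowest p were Anln (−1.24, SE 0.35, adjusted p = 0.0124), Bub1b (−1.06, SE 0.34, adjusted p = 0.0263), Ccnb2 (−1.02, SE 0.34, adjusted p = 0.0285) and the proliferation marker Mki67 (−1.31, SE 0.47, adjusted p = 0.0412). The difference between the lists was not tested.

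**Figure D5:**
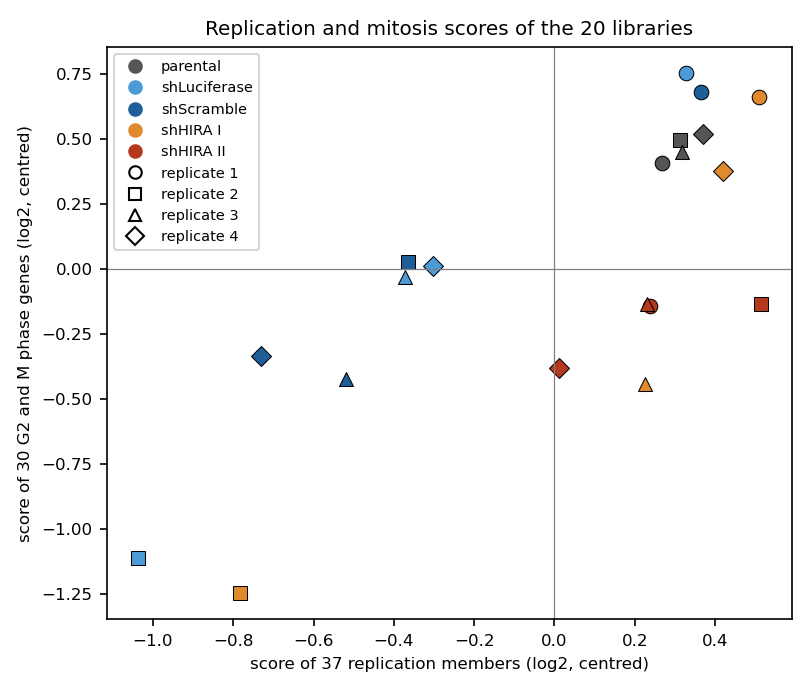
Score of the 37 replication members (horizontal axis) against that of 30 genes of G2 and M phase (vertical axis), both as mean log2(CPM + 1) centred per gene, for the 20 libraries; colour gives the group and shape the replicate number. Parental libraries, replicate 1 of both control hairpins and shHIRA I replicates 1 and 4 lie at the upper right, shLuciferase 2 and shHIRA I 2 at the lower left, and the 4 libraries labelled shHIRA II with shHIRA I 3 at the lower right.

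Of 7 genes for inhibitors of the cyclin-dependent kinases 6 were tested. Cdkn1b (p27) rose on transduction (0.44, SE 0.11, adjusted p = 0.0398). Cdkn2b (p15, 1.34, SE 0.25, adjusted p = 0.000964) and Cdkn2a (p16 and p19Arf, 0.90, SE 0.24, adjusted p = 0.0111) rose with shHIRA I, and Cdkn2c (p18) fell in libraries with the shHIRA II label (−0.94, SE 0.23, adjusted p = 0.00428). Against parental cells Cdkn1b (0.75, SE 0.13, adjusted p = 0.00078) and Cdkn2b (1.57, SE 0.31, adjusted p = 0.00201) rose with shHIRA I. In libraries with the shHIRA II label, Cdkn1a (p21, 1.49, SE 0.32, adjusted p = 0.00189) and Cdkn1b (0.46, SE 0.13, adjusted p = 0.013) were higher than in parental cells and Cdkn2c was lower (−1.11, SE 0.26, adjusted p = 0.00337). The summed level of all 7 inhibitors was 298 to 437 CPM in libraries with the shHIRA II label and 361 to 399 in parental cells. With shHIRA I it was 354 to 708, the highest value being that of replicate 3.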

How the data were processed

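Transcript levels were measured by stranded poly(A) RNA-seq in 20 libraries, 4 in each of 5 groups. The values are the authors' deposited gene tables: estimated counts, and TPM. The tools named in the notes of the submitters on processing are kallisto, bcl2fastq and edgeR, with build mm10; their versions and the transcript annotation are not given in the sources used here. Each deposited count equals the TPM times 1 length per gene and 1 factor per library (largest log2 deviation 1.2e-09 over 9740 genes), so isoform shifts do not enter. The authors' TPM served for levels compared between genes and for 1 alternative. kallisto splits reads among similar transcripts, so the share of 31-base words that a member shares with other genes (GENCODE M21) is given beside members where it is over 10%. It was also 11% in Orc1, 11.4% in Tyms and 12.8% in both Rrm2 and Slbp.

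Columns were assigned by name, those named as control without a hairpin being taken as parental, and shHIRA columns without a numeral as shHIRA I. Spreadsheet dates replaced some gene names; no member was among them. Estimated counts were rounded. Tests were edgeR 4.0.16 quasi-likelihood F tests (R 4.3.3) with TMM factors, its filter (minimum count 10, total 15), group means over all 20 libraries and Benjamini-Hochberg adjustment over 13541 genes, with calls under 0.05. Transduction is the mean of both control hairpins minus parental, and each Hira hairpin was set against that mean. CPM uses TMM-scaled totals, and scores use log2(CPM + 1). Errors are standard errors of the fit, and intervals span 1.96 of them to each side. These 95% intervals are nominal and somewhat narrower than the F test implies. That of Mcm2 on transduction was −1.09 to −0.03 with an unadjusted edgeR p of 0.0516. Alternatives were DESeq2 1.42.0, limma 3.58.1 on log2(TPM + 1), RLE factors, no filter, only the groups compared, a replicate block, the mitochondrial share as a covariate, and libraries left out. On data simulated for the transduction comparison (13325 genes), 50.5% of 2-fold and 11.1% of 1.5-fold changes were recovered and 10.8% of calls were false. p-values measure the spread between these libraries.

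The members and lists were chosen with earlier results of these data known. Named with values in every library were the members called on transduction or with either hairpin, at most 12, by lowest adjusted p; of other lists, the 4 called of lowest p, of which 1 gene is not reported here. Lists of melanoblast, fibroblast, keratinocyte and leukocyte markers are given as sums.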

Additional observations from a re-analysis of the deposited data

Results flagged for a closer look

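Of 65 groups of 4 libraries examined (12 members and the score, in 5 groups), 5 held a library whose gap to the nearest other was over Dixon's 95% critical value; chance gives about 1 in 20. Replicate 1 of shScramble stood apart for Ung (24.8 CPM, the others 14.4 to 15.6) and for Rrm2 (215 CPM, the others 98.4 to 103), and replicate 1 of shLuciferase for Cdca7 (34.6 CPM, the others 15.1 to 18.05). Replicate 2 of shHIRA I was low for Rfc3 (23.1 CPM, the others 58.04 to 65.1). Parental replicate 1 was high for Mcm5 (16.2 CPM, the others 11.8 to 11.9).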

How the results depend on the processing

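The median over the 37 genes stayed below 0 on transduction, and above 0 with each Hira hairpin, under every alternative run. The counts called moved. On transduction (4 genes) they were 2 with no filter and 2 with limma on TPM, 1 to 9 with a library left out, and 0, 0 and 0 with number 2, 3 or 4 left out of every group. Of all genes 136 of 22737 fell with no filter and 85 of 13541 with limma. Without number 2, 3 or 4, 128 of 13545, 31 of 13612 and 39 of 13700 fell. With shHIRA I (5) the counts called were 1 with only the groups compared, 2 with the mitochondrial share as a covariate, 2 without the 2 libraries of lowest share, 1 to 14 with a library left out, and 10, 1 and 1 without number 2, 3 or 4. Of all genes 996 of 13053 rose with only the groups compared, 1757 of 13541 with the covariate and 1625 of 13736 without the 2 libraries. Without number 2, 3 or 4, 1382 of 13545, 950 of 13612 and 804 of 13700 rose. In the libraries labelled shHIRA II (10) the counts called were 17 with limma on TPM, 0 with the covariate, 2 without the 2 libraries of lowest share, 2 to 22 with a library left out, and 21, 1, 1 and 0 without number 1, 2, 3 or 4. Of all genes 2636 of 13541 rose with limma, 1807 of 13541 with the covariate and 2128 of 13736 without the 2 libraries. Without number 1, 2, 3 or 4, 1773 of 13640, 1470 of 13545, 1890 of 13612 and 1141 of 13700 rose. Between the hairpins (0) the count was 1 without number 2 (lower, as were 1048 of 13545 genes). Against parental cells the count was 1 with the covariate for shHIRA I (0), where 1657 of 13541 genes fell. For shHIRA II (1) it was 0 with RLE factors, no filter, limma on TPM or the covariate, where 1170 to 2076 of all genes fell. It was 6 with only the groups compared (2 higher, 4 lower), 0 to 1 with a library left out and 0 without number 1, 3 or 4 (999 to 1779 of all genes fell). The causes were not tested. Leaving a number out of every group was chosen after seeing the data and leaves 3 libraries a group.

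Rfc4 with shHIRA I reversed to −0.094 with the covariate and to −0.010 without number 3, and Slbp in the libraries labelled shHIRA II to −0.045 with the covariate. On log2(TPM + 1) the parental scores were less even, at 0.07, 0.30, 0.12 and 0.35 in replicates 1 to 4, with a mean of 0.21. The mean of the libraries labelled shHIRA II was 0.30 on that scale, above the parental one. There shHIRA I replicate 3 scored −0.01. Libraries were not treated as paired, since the labels do not tie a biological replicate number to a shared culture or day and not every same-numbered pair correlated over 0.1. Deviations of same-numbered libraries from their group means correlated from −0.38 to 0.59 over 40 pairs (median 0.12, 21 over 0.1), and 11 of 20 libraries correlated best with their own number, a hint from the data and not from the design. A replicate block in edgeR gave 18 calls for shHIRA II, 5 for shHIRA I, with Slbp lost (adjusted p = 0.066), and 5 on transduction. Of 13541 genes 2386 rose for shHIRA II, 1548 rose for shHIRA I and 278 fell on transduction.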

Other observations

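Replicate 1 of both control hairpins was compared with parental replicate 1 on genes outside replication. Fitted without number 1 in any group, 142 genes rose and 90 fell on transduction, the members and lists above left out. Of the 142, shLuciferase replicate 1 was above parental replicate 1 in 88% and shScramble replicate 1 in 91.5%. Of the 90, they were below it in 82.2% and 77.8%. These libraries were thus on the transduced side for most such genes while their replication scores were at the parental level. The genes were chosen in other libraries of the same groups, and the comparison has no test.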
